A study of Mus musculus with 47 samples.

Results

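The comparison set T-cell precursors that had lost Bcl11b against normal precursors of the stage at which the knockout cells are said to stop. It used 11 of the 47 RNA-seq libraries of the series: 7 Bcl11b knockout libraries and 4 DN2a libraries. Members were chosen by their labels alone: knockout cells grown from fetal liver on OP9-DL1 stroma with titles dated 2012 and no short-term vector experiment, against fetal liver DN2a cells on the same stroma that had received neither a Cre virus nor a γ-secretase inhibitor. The question was how arrested knockout cells differ from true DN2a cells. A further 6 libraries, normal C57BL/6 precursors given the same Cre virus and grown on OP9-DL1 in 2012, served as a second normal group and are called Cre controls below.

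All groups started from E13.5 mouse fetal liver precursors, and all were grown with Flt3L and IL-7 at 5 ng/ml each on OP9-DL1, a bone marrow stromal line that displays the Notch ligand DL1. The knockout cells came from embryos homozygous for floxed Bcl11b, some with a ROSA26R reporter that turns on YFP after Cre has acted. A retrovirus carried Cre into the knockout and Cre control cells before differentiation, and transduced cells were re-sorted on the reporter. Per the labels' protocols, knockout cells were sorted at harvest with high Kit and CD25 (DN2a) and Cre controls with intermediate Kit (DN2b). The titles were less uniform: 1 knockout title named DN2a, 5 named DN2 and 1 named DN2b, and 3 of the 6 Cre control titles named DN2b and 3 DN2.

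Knockout and DN2a libraries differed in more than Bcl11b. Knockout titles gave 9 to 12 days of culture, against 8.5 and 4.5 days in the pair of DN2a titles that gave a day. The DN2a libraries were dated 2010 and 2011, and 3 of the 4 titles named 2 dates each. How DN2a cells without Cre virus were gated is not stated apart from their stage name. Genotype, Cre virus, year and culture time therefore cannot be told apart in this comparison. Title dates less culture days placed the 7 knockout libraries in 4 cultures, so some knockout libraries share a culture. A second fit used 7 knockout libraries from 2010 and 2011 with the year as a term, all of them on OP9-DL4 stroma or with reduced IL-7, and its values are given below as the year-term difference. The DN2a libraries are the same in both fits. In the year-term fit 2221 of 12873 tested genes were called (17.3%), 1193 higher (9.27%) and 1028 lower (7.99%).

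T cells arise in steps from uncommitted precursors under Notch signalling. DN2a cells still express stem and progenitor regulators and can turn into myeloid, dendritic or NK cells. Bcl11b, a zinc finger transcription factor, is switched on between DN2a and DN2b and is needed for commitment. Precursors without it keep growing under Notch signals and IL-7 and can acquire NK-like features.

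Values are FPKM, read fragments scaled to gene length and library size, as the authors deposited them after merging and batch adjustment. Depth per library is not known from such values. In the 11 libraries, 11866 to 13370 genes reached 1 FPKM. The lowest value in the table was 0.1, a floor. Some abundant genes sat at that floor: of 1919 genes with a median of 50 FPKM or more over all 47 libraries, 26 were listed at 0.1 in at least 1 DN2a library and 17 in at least 1 knockout library. A value of 0.1 is therefore given as listed, not as absent. Differences are on the log2(FPKM + 1) scale, which understates changes of low genes, and are followed by ± their standard error. A gene was called when its limma p-value, Benjamini-Hochberg adjusted over all tested genes, was under 0.05. Whether groups overlapped is given for single genes only. The share of all tested genes without overlap was not counted, so a lack of overlap is description and not further evidence. Nothing in the labels says that libraries came from separate animals, so p-values measure the spread between libraries.

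Between knockout and DN2a libraries, 2196 of 12979 tested genes were called (16.9%). In knockout libraries 1255 were higher (9.67%) and 941 were lower (7.25%). Counts of list members below are to be read against these shares. Quantile normalization turned this split to 1077 higher and 1253 lower. Differences of 2-fold or more were found for 548 genes higher (4.22%) and 243 genes lower (1.87%). Among the 1255 higher genes, 348 (27.7%) were listed at 0.1 in at least 1 DN2a library, against 4.83% of all tested genes. All 21 tested genes listed at 0.1 in all 4 DN2a libraries were called higher. The filter asked for 1 FPKM in 4 libraries, so these genes passed it through knockout libraries alone and could not come out lower. In the same way, genes under 1 FPKM in every knockout library could not come out higher. The list counts below include some genes of both kinds. Setting aside floor values wherever another library of the same group had 10 FPKM or more dropped 292 values in 159 genes, and 2223 genes were then called. Other floor values stayed in, so this count does not show whether calls that rest on them would hold. Leaving out single libraries gave between 1160 and 2404 called genes, and the lowest number came without the DN2a library of day 4.5. Using only knockout libraries of day 9, which are fewer, gave 428 called genes. Against the Cre controls, 778 of 12710 tested genes were called in knockout libraries (6.12%), 453 higher (3.56%) and 325 lower (2.56%). Between the 2 normal groups, 2969 of 12932 tested genes were called in Cre controls against DN2a (23%). The Cre controls are dated 2012 like the knockout libraries.

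**Figure D1:**
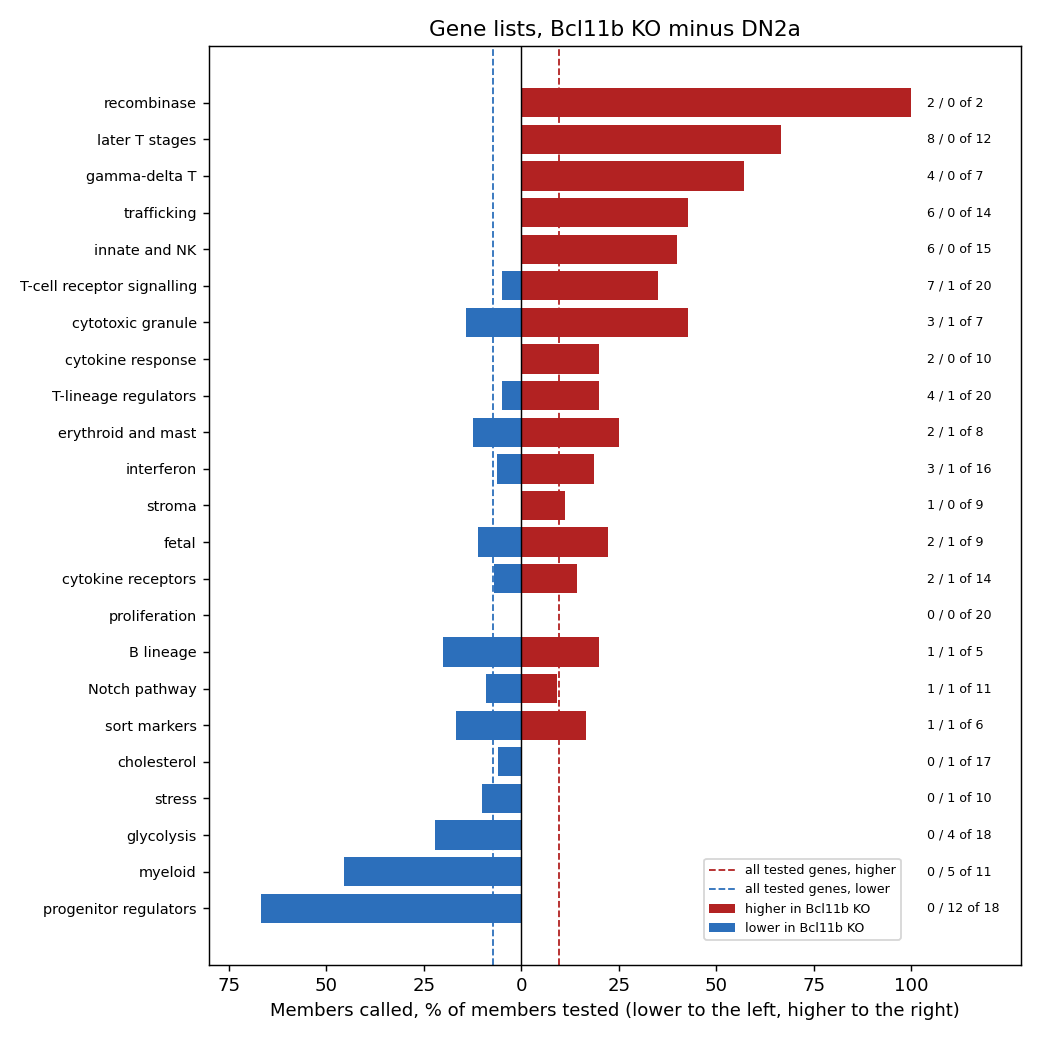
Percentage of tested members of 23 gene lists called higher (right, red) or lower (left, blue) in Bcl11b knockout (KO) than in DN2a libraries, with the counts higher / lower of tested at the right. Dashed lines mark all tested genes (9.67% higher, 7.25% lower); progenitor regulators had 12 of 18 lower and genes of later T stages had 8 of 12 higher.

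Genes of the T-cell receptor complex and its signalling were split. Of 20 listed and tested members, 7 were higher and 1 was lower in knockout libraries, with a median difference of 0.82, against 0.02 over all tested genes. When single libraries were left out, the number higher ranged from 4 to 8. Against Cre controls 1 of the 20 was higher and 6 were lower (median difference -0.64), and in the year-term fit 13 were higher and 2 lower. The 7 included Thy1, Cd247, Lat, Trat1, Txk and Lck.

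Thy1, a surface glycoprotein carried by T cells, had a lowest, median and highest level of 277, 361 and 591 FPKM in knockout libraries, against 54.5, 0.1, 47.7 and 0.1 FPKM in DN2a libraries. The log2 difference was 5.70 ± 0.97 (limma, adjusted p = 0.00268), or 2.92 when the floor values were set aside. All knockout libraries lay above all DN2a libraries. Cd247, the ζ chain that carries the receptor's signal, had 13.3, 54.2 and 82.1 FPKM (lowest, median, highest) in knockout libraries, against 0.1, 0.1, 8.49 and 0.1 FPKM in DN2a libraries. Its log2 difference was 4.59 ± 0.58 (limma, adjusted p = 0.00043). The groups did not overlap, and 3 of the 4 DN2a libraries were listed at the floor.

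Lat, the scaffold on which receptor signals assemble, had 49.7, 101 and 168 FPKM (lowest, median, highest) in knockout libraries, against 49.2, 0.1, 31.6 and 0.1 FPKM in DN2a libraries. Here the groups nearly touched, and the difference of 3.81 ± 0.93 (limma, adjusted p = 0.0158) was 1.21 without the floor values. It lost its call without DN2a replicate 2 (adjusted p = 0.0502) or replicate 4 (adjusted p = 0.0568). Txk, a Tec family kinase downstream of the receptor, had 24.3, 34.4 and 51.4 FPKM in knockout libraries, against 6.91, 16.2, 19.1 and 12.8 FPKM in DN2a libraries, a difference of 1.32 ± 0.26 (limma, adjusted p = 0.00614). Txk was also higher in knockout libraries than in Cre controls, by 0.95 (limma, adjusted p = 0.00275).

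Lck, the kinase that starts receptor signalling, was already abundant in DN2a libraries: 252, 314 and 421 FPKM (lowest, median, highest) in knockout libraries, against 325, 96.8, 183 and 132 FPKM in DN2a libraries. The difference of 0.92 ± 0.27 (limma, adjusted p = 0.0332) was 0.67 without DN2a replicate 2 (adjusted p = 0.113), lost its call in 6 of the 11 single-library omissions, and the groups overlapped through DN2a replicate 1. With libraries of 1 culture averaged, Lck was not called (limma, adjusted p = 0.069). Trat1, an adaptor of the receptor complex, differed by 1.42 ± 0.40 (limma, adjusted p = 0.0281) and lost its call without DN2a replicate 1 (0.98, adjusted p = 0.0796), DN2a replicate 4 (adjusted p = 0.0914) or knockout replicate 4 (adjusted p = 0.0514). The member that fell was Ubash3a, a phosphatase-like inhibitor of receptor signalling, with 8.66, 14.2 and 15.2 FPKM in knockout libraries, against 39.1, 26.4, 24.7 and 22.5 FPKM in DN2a libraries. All knockout libraries lay below all DN2a libraries (difference -1.04 ± 0.19, limma, adjusted p = 0.00355).

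**Figure D2:**
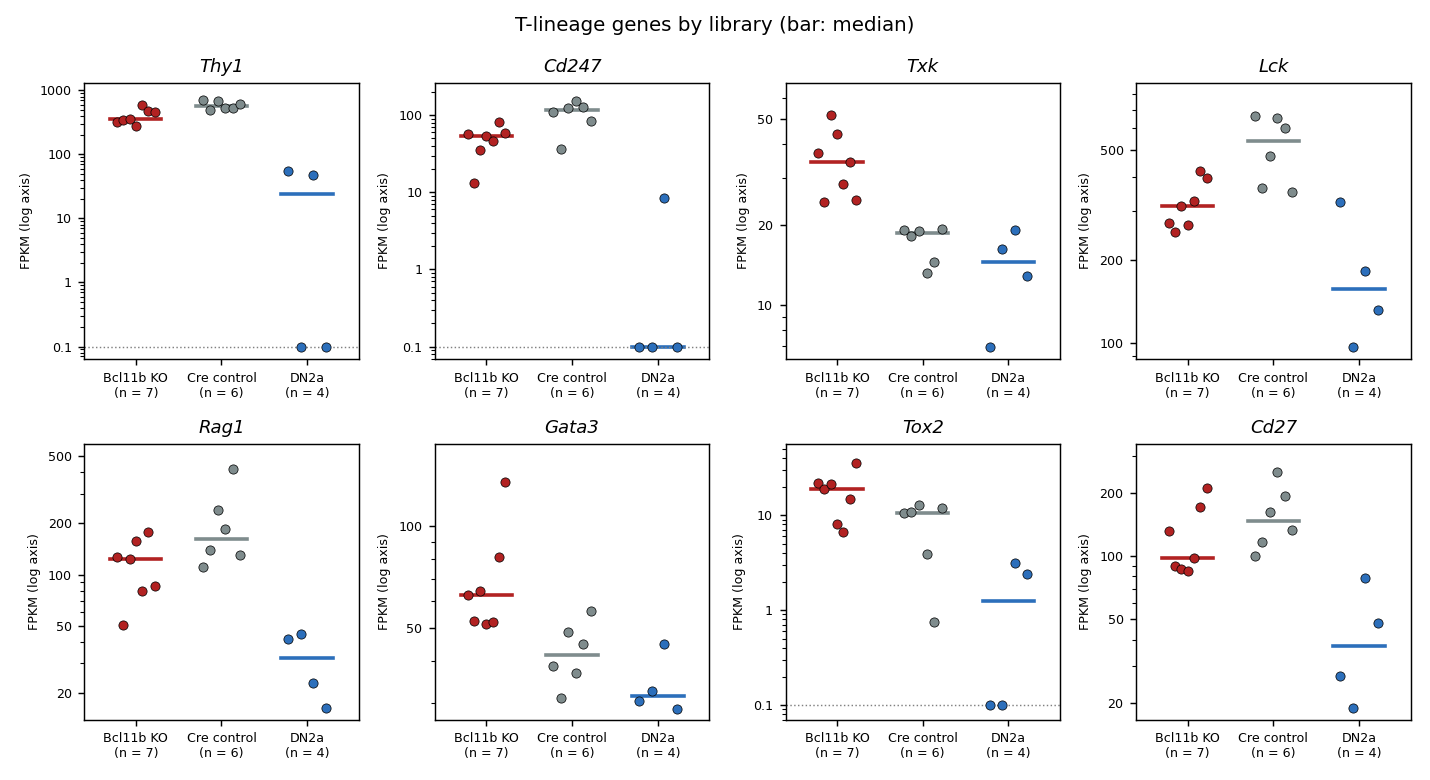
FPKM (log axis) of 8 T-lineage genes in each library of Bcl11b knockout (KO, n = 7), Cre control (n = 6) and DN2a (n = 4); points are libraries, bars are medians and the dotted line is the floor of 0.1 FPKM. Thy1 lies between 277 and 591 FPKM in knockout libraries and at or under 54.5 FPKM in DN2a libraries, and Lck overlaps between these groups.

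The CD3 chains, which lie together on chromosome 9 and carry the receptor to the surface, were not called against DN2a, nor was the pre-T-cell receptor chain. Cd3e was listed at 0.1 FPKM in 4 of 7 knockout libraries, with a highest value of 9.40 FPKM, against 21.9, 0.1, 0.997 and 0.1 FPKM in DN2a libraries. Cre controls had 32.1 to 114 FPKM, above every library of the other groups. The knockout minus DN2a difference was 0.04 ± 0.94 (limma, adjusted p = 0.986), and the knockout minus Cre control difference was -4.72 (limma, adjusted p = 0.000104). The first standard error is large, so a small or moderate change in either direction could not be resolved at this spread.

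Ptcra, the pre-TCR α chain, had 0.156, 10.3 and 33.3 FPKM (lowest, median, highest) in knockout libraries, against 11.04, 29.5, 5.05 and 5.28 FPKM in DN2a libraries. These ranges lie within one another, and the difference was -0.02 ± 0.77 (limma, adjusted p = 0.992). The year-term difference was 1.68 (limma, adjusted p = 0.0295), with the sign turned. Cd3g had 0.1, 158 and 384 FPKM in knockout libraries, against 175, 439, 114 and 73.1 FPKM in DN2a libraries, with overlap (difference -0.90 ± 1.25, limma, adjusted p = 0.649). Cd3d also overlapped (1.36 ± 1.35, limma, adjusted p = 0.506). Cd3e and Cd3d were both called in the year-term fit, with differences of 3.16 and 3.83 (limma, adjusted p = 0.0139 and 0.00243), and Cd3g was called there with the sign turned (1.18, limma, adjusted p = 0.0222).

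Bcl11b itself had 8.77, 18.6 and 37.9 FPKM (lowest, median, highest) in knockout libraries, against 13.3, 0.1, 15.1 and 6.27 FPKM in DN2a libraries and 40.5 to 84.4 FPKM in Cre controls. The knockout libraries lay below all Cre controls and overlapped with DN2a. The knockout minus DN2a difference was 1.67 ± 0.60 (limma, adjusted p = 0.0703), and 0.82 with the floor value of DN2a replicate 2 set aside (adjusted p = 0.137). The knockout minus Cre control difference was -1.53 (limma, adjusted p = 0.00143). The values cover the whole gene and do not separate the deleted part, so they do not check the deletion.

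**Figure D3:**
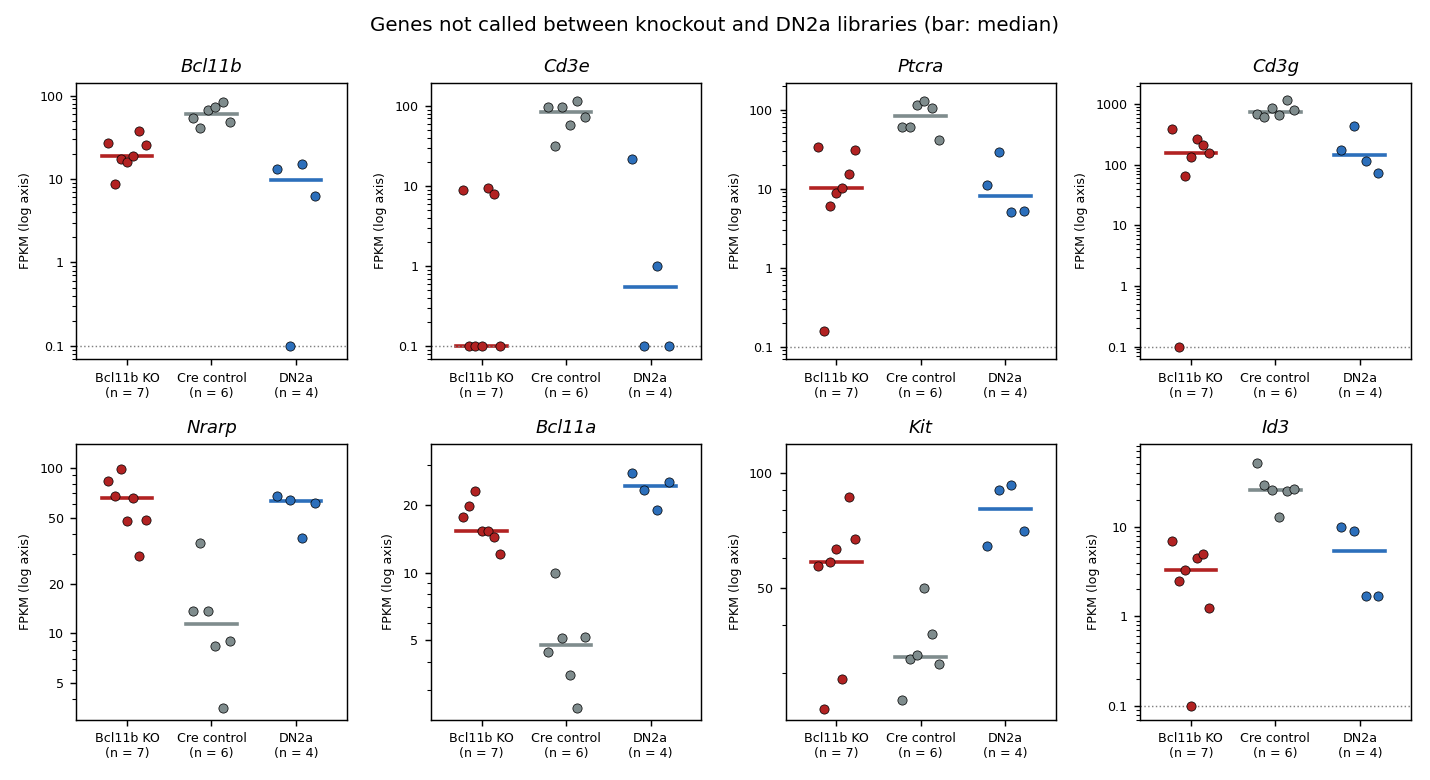
FPKM (log axis) of 8 genes without a call between knockout and DN2a libraries, in Bcl11b knockout (KO, n = 7), Cre control (n = 6) and DN2a (n = 4) libraries; points are libraries, bars are medians and the dotted line is the floor. For Cd3e, Cre controls lie at 32.1 to 114 FPKM and every other library at or under 21.9 FPKM.

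Among 20 transcription factors of the T lineage, 4 were higher and 1 was lower in knockout libraries (median difference 0.55). The number higher was 2 to 6 when single libraries were left out, and in the year-term fit 10 of the 20 were higher and none was lower. Gata3, which is needed from the earliest T-cell stages on, had 51.4, 62.5 and 135 FPKM (lowest, median, highest) in knockout libraries, against 30.4, 32.5, 44.7 and 28.9 FPKM in DN2a libraries. The groups did not overlap, the difference was 0.98 ± 0.24 (limma, adjusted p = 0.0171), and it was 0.91 without DN2a replicate 4 (adjusted p = 0.0585). Tox2, a high-mobility-group factor, had 6.65, 18.8 and 35.0 FPKM in knockout libraries, against 0.1, 0.1, 3.13 and 2.39 FPKM in DN2a libraries (difference 3.06 ± 0.46, limma, adjusted p = 0.00138). All knockout libraries were above all DN2a libraries. Ikzf3, the Ikaros family factor Aiolos, had 6.29, 8.20 and 11.01 FPKM in knockout libraries, against 5.97, 0.1, 1.39 and 1.31 FPKM in DN2a libraries, a difference of 1.83 ± 0.36 (limma, adjusted p = 0.00575). Its lowest knockout library was just above DN2a replicate 1, and its year-term difference of 0.96 was not called (limma, adjusted p = 0.438).

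The fourth higher factor was Ets2 (0.79 ± 0.21, limma, adjusted p = 0.0245), whose year-term difference was -0.27 (limma, adjusted p = 0.818) and whose call was lost without DN2a replicate 2, 3 or 4 (adjusted p = 0.0745, 0.0736 and 0.0777). The call was also lost with libraries of 1 culture averaged (limma, adjusted p = 0.0534). Hivep3, a large zinc finger protein, was the lower one, listed at 0.1 in 4 of the 7 knockout libraries with a highest value of 1.79 FPKM, against 6.35, 1.29, 1.68 and 1.82 FPKM in DN2a libraries. Its difference of -1.32 ± 0.32 (limma, adjusted p = 0.0164) was not found in the year-term fit (0.07, limma, adjusted p = 0.937). Hivep3 was also not called with libraries of 1 culture averaged (limma, adjusted p = 0.0692). Tcf7, the Notch-induced factor TCF-1, had 333, 552 and 863 FPKM in knockout libraries, against 343, 204, 485 and 273 FPKM in DN2a libraries, and was not called (0.76 ± 0.27, limma, adjusted p = 0.0686). Bcl11a, the paralog of Bcl11b that precedes it, had 12.1, 15.3 and 23.0 FPKM in knockout libraries, against 27.5, 23.3, 18.9 and 25.2 FPKM in DN2a libraries. It was not called (-0.49 ± 0.17, limma, adjusted p = 0.0654), while Cre controls had 2.50 to 9.92 FPKM, below all of these libraries.

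Id3, an inhibitor of E proteins that receptor signals induce, had 0.1, 3.31 and 6.93 FPKM in knockout libraries, against 10.1, 9.10, 1.70 and 1.71 FPKM in DN2a libraries and 13.1 to 51.6 FPKM in Cre controls. Knockout and DN2a libraries overlapped (-0.52 ± 0.54, limma, adjusted p = 0.5262), while the year-term difference had the other sign and was called (1.32, limma, adjusted p = 0.0379). Rag1, a subunit of the recombinase that joins receptor gene segments, had 50.3, 124 and 177 FPKM (lowest, median, highest) in knockout libraries, against 41.8, 44.4, 23.1 and 16.4 FPKM in DN2a libraries. All knockout libraries were higher (1.83 ± 0.34, limma, adjusted p = 0.00435). The other subunit, Rag2, differed by 0.96 ± 0.29 (limma, adjusted p = 0.0367), with overlap, and lost its call in 7 of the 11 omissions, with the highest adjusted p of 0.112 without DN2a replicate 1. In the year-term fit Rag1 was not called (1.14, limma, adjusted p = 0.342) and Rag2 was (0.88, limma, adjusted p = 0.0453).

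Of 12 genes that mark later T-cell stages, 8 were higher in knockout libraries and none was lower (median difference 1.68). In the year-term fit 4 of them were higher, and against Cre controls limma called none, with 6 of 12 at an unadjusted p under 0.05. Cd27, a TNF receptor family costimulator, had 84.8, 98.1 and 211 FPKM (lowest, median, highest) in knockout libraries, against 26.7, 18.9, 78.4 and 47.8 FPKM in DN2a libraries (1.63 ± 0.35, limma, adjusted p = 0.00936). Ccr9, the chemokine receptor that leads cells through the thymus, had 14.1, 16.5 and 32.4 FPKM in knockout libraries, against 0.1, 5.15, 6.87 and 2.73 FPKM in DN2a libraries (2.40 ± 0.43, limma, adjusted p = 0.00372). Ltb, the membrane chain of lymphotoxin, had 34.5, 42.7 and 107 FPKM in knockout libraries, against 0.1, 0.1, 28.8 and 6.85 FPKM in DN2a libraries (3.64 ± 0.74, limma, adjusted p = 0.0069). None of these 3 overlapped between knockout and DN2a libraries. Cd27 and Ccr9 were also called in the year-term fit (1.62 and 2.85, limma, adjusted p = 0.00215 and 0.00366), as was Ltb (3.71, limma, adjusted p = 0.00537). Without its floor values the difference of Ltb was 1.75. Cell sorting used CD27 early in the culture of transduced cells, which the DN2a cells were not.

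Cd4, Cd8a and Cd8b1, the coreceptors of later stages, had nearly the same value in most knockout libraries. Cd4 lay between 26.5 and 31.2 FPKM in all 7, against 19.9, 0.211, 11.5 and 11.4 FPKM in DN2a libraries. Cd8b1 had 5 of the 7 libraries within 2% of one another and ranged from 44.3 to 53.9 FPKM, against 34.9, 0.5675, 11.02 and 11.1 FPKM in DN2a libraries. Such agreement, 4 or more knockout libraries within 2%, was seen in 148 of 12979 tested genes (1.14%), in 2.71% of those called higher and in 3.61% of those called lower. All 3 genes were called higher (1.94, 2.06 and 2.39 for Cd4, Cd8a and Cd8b1; limma, adjusted p = 0.0308, 0.00557 and 0.0141). Cd4 lost its call without knockout replicate 4 or 7 (adjusted p = 0.0504 and 0.0512). With libraries of 1 culture averaged, Cd4 and Cd8b1 were not called (limma, adjusted p = 0.0882 and 0.0521). None of the 3 genes was called in the year-term fit, where the differences were 0.13, 0.18 and 0.33 (limma, adjusted p = 0.929, 0.899 and 0.846). Whether the batch adjustment moved them was not tested. Slamf1, a costimulatory receptor, was also called (1.22 ± 0.26, limma, adjusted p = 0.00835).

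The γδ and IL-17 list had 4 of 7 tested members higher and none lower (median difference 1.36), and 2 of 6 higher in the year-term fit. They included Maf, Sox5 and Blk. Maf, a bZIP factor of γδ T cells, had 6.82, 9.76 and 33.0 FPKM (lowest, median, highest) in knockout libraries, against 0.1, 4.36, 6.16 and 3.45 FPKM in DN2a libraries (1.86 ± 0.49, limma, adjusted p = 0.0213), and 1.27 without DN2a replicate 1 (adjusted p = 0.053). Blk, a Src family kinase, had 0.469, 2.89 and 4.28 FPKM in knockout libraries and was listed at 0.1 FPKM in all 4 DN2a libraries. Blk passed the filter through knockout libraries alone, so it could not have come out lower, and it was not tested in the year-term fit. Sox13, a γδ lineage factor, did not separate the groups: it had 12.1, 19.1 and 27.8 FPKM in knockout libraries, against 23.1, 7.71, 26.2 and 20.4 FPKM in DN2a libraries (0.03 ± 0.29, limma, adjusted p = 0.962). Cre controls had 39.1 to 60.5 FPKM of Sox13, above all of them.

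Of 18 tested regulators of stem and progenitor cells, 12 were lower in knockout than in DN2a libraries and none was higher (median difference -0.65). The number lower was 12 with median scaling, 13 with quantile normalization and 8 to 12 when single libraries were left out. Against Cre controls 6 of 15 tested were higher and none was lower. Spi1, which encodes PU.1 and drives myeloid and early lymphoid genes, had 11.6, 22.2 and 41.1 FPKM (lowest, median, highest) in knockout libraries, against 52.0, 55.5, 38.2 and 51.5 FPKM in DN2a libraries. Knockout replicate 2 alone lay above the lowest DN2a library, and the difference was -1.12 ± 0.25 (limma, adjusted p = 0.011).

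Mycn, a Myc family member, had 11.3, 17.1 and 29.0 FPKM in knockout libraries, against 47.4, 36.2, 36.9 and 40.9 FPKM in DN2a libraries (-1.17 ± 0.22, limma, adjusted p = 0.00453). Gfi1b, a repressor of erythroid and megakaryocytic precursors, had 5.45, 7.99 and 14.1 FPKM in knockout libraries, against 23.0, 16.3, 16.1 and 16.5 FPKM in DN2a libraries (-1.03 ± 0.21, limma, adjusted p = 0.00747). Neither gene overlapped between the groups. Both were nevertheless higher in knockout libraries than in Cre controls, by 1.06 for Mycn (limma, adjusted p = 0.0279) and by 1.84 for Gfi1b (limma, adjusted p = 0.000186). Cre controls had 3.73 to 19.0 FPKM of Mycn and 0.341 to 2.91 FPKM of Gfi1b, so knockout libraries had medians between those of the 2 normal groups.

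Tal1, Nfe2 and Hhex, blood stem and progenitor factors, followed the same order of medians. Tal1 had 2.97, 3.64 and 4.43 FPKM (lowest, median, highest) in knockout libraries, against 6.53, 7.34, 7.01 and 7.32 FPKM in DN2a libraries (-0.78 ± 0.13, limma, adjusted p = 0.00271). Nfe2 had 56.2, 65.2 and 92.1 FPKM in knockout libraries, against 135, 125, 122 and 120 FPKM in DN2a libraries (-0.84 ± 0.16, limma, adjusted p = 0.00427). Hhex differed by -0.60 ± 0.16 (limma, adjusted p = 0.0205), and lost its call without DN2a replicate 2 or 4 (adjusted p = 0.0702 and 0.0675). Mef2c and Lmo2 were low in every library: Mef2c reached 0.84 FPKM at most in knockout libraries, against 2.20, 2.32, 2.13 and 2.81 FPKM in DN2a libraries (-1.21 ± 0.15, limma, adjusted p = 0.000352). Mef2c passed the filter through DN2a libraries alone, so it could not have come out higher. Erg, Meis1, Runx2 and Hoxa9 completed the 12, with differences of -0.50, -0.63, -0.69 and -0.67. Meis1 lost its call without DN2a replicate 2 or 4, and Runx2 without DN2a replicate 1 or 3. Erg and Hoxa9 lost theirs without any single DN2a replicate and in most knockout omissions (limma, adjusted p up to 0.111 and 0.092). Lyl1, Gata2 and Cd34 were not called (-0.47, -0.32 and -0.55; limma, adjusted p = 0.126, 0.158 and 0.0864). The year-term difference was -1.25 for Spi1, -1.60 for Mycn, -1.71 for Gfi1b, -1.27 for Tal1 and -1.51 for Nfe2, with limma adjusted p of 0.000219 or less. With day 9 knockout libraries only, a fit on fewer libraries, these differences were smaller. In the same order they were -0.70, -0.81, -0.68, -0.81 and -0.69 (limma, adjusted p = 0.0994, 0.0588, 0.0986, 0.0454 and 0.0771), so Tal1 alone was called.

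**Figure D4:**
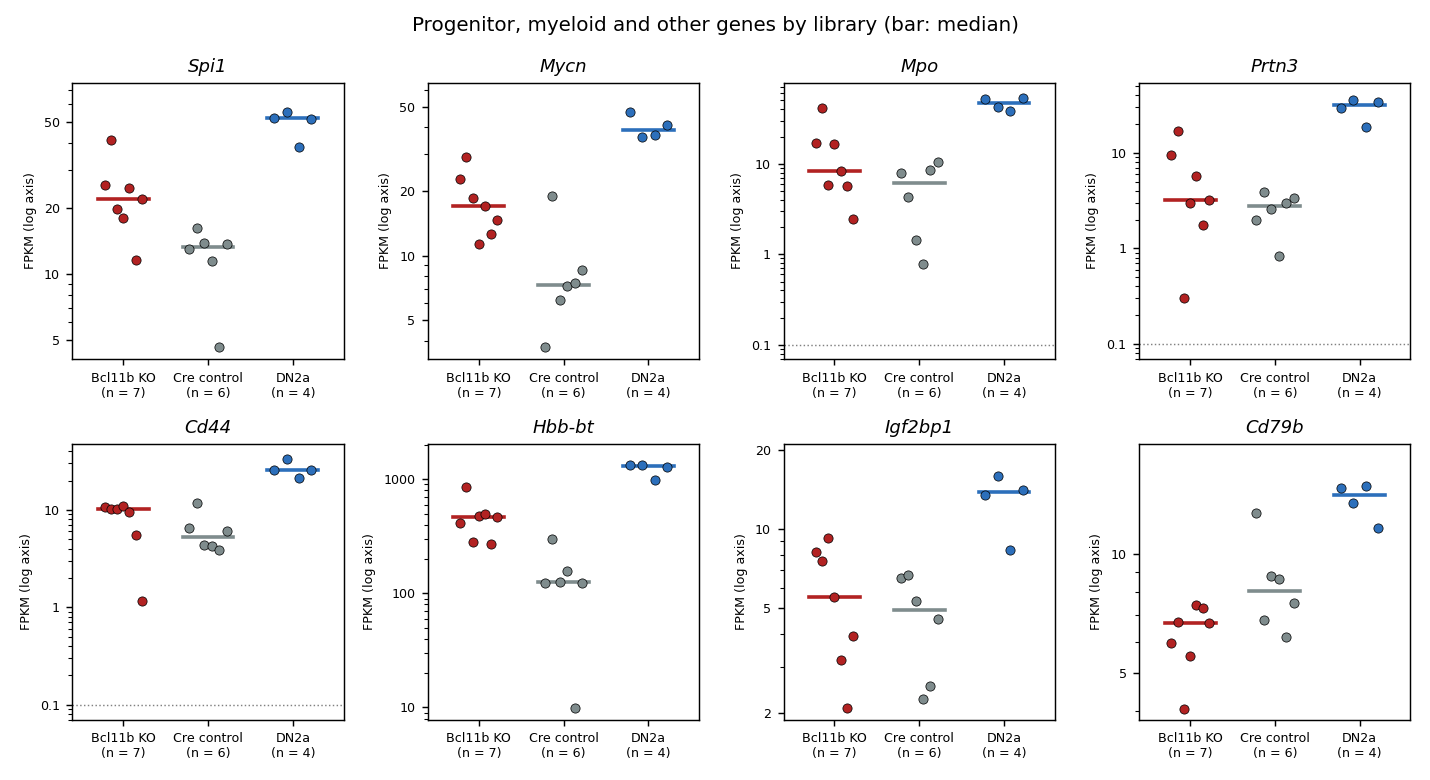
FPKM (log axis) of 8 progenitor, myeloid and other genes that were lower in knockout than in DN2a libraries, in Bcl11b knockout (KO, n = 7), Cre control (n = 6) and DN2a (n = 4) libraries; points are libraries and bars are medians. Hbb-bt lies between 273 and 855 FPKM in knockout libraries, at or above 989 FPKM in DN2a libraries and at or under 297 FPKM in Cre controls.

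Of 11 tested myeloid genes, which mark another lineage, 5 were lower and none was higher, although their median difference was -0.13. Their summed level was 75.4 to 144 FPKM in knockout libraries, against 136 to 154 FPKM in DN2a libraries and 28.3 to 40.7 FPKM in Cre controls. In bulk RNA, fewer cells of a type and less RNA per cell cannot be told apart. Mpo, the granule enzyme myeloperoxidase, had 2.44, 8.35 and 41.0 FPKM (lowest, median, highest) in knockout libraries, against 51.6, 42.4, 38.1 and 52.9 FPKM in DN2a libraries (-2.09 ± 0.51, limma, adjusted p = 0.0165). It was just short of a call without DN2a replicate 4 (-2.02, adjusted p = 0.0502). Prtn3, a serine protease of the same granules, had 0.303, 3.18 and 16.998 FPKM in knockout libraries, against 29.7, 35.4, 18.7 and 34.2 FPKM in DN2a libraries (-2.57 ± 0.55, limma, adjusted p = 0.00874). Knockout replicate 2 was the highest of its group for both, as it was for Spi1, and it had the lowest Bcl11b level of the group. Without it the differences were -2.41 for Mpo, -2.88 for Prtn3 and -1.26 for Spi1 (limma, adjusted p = 0.0029, 0.00258 and 0.00279). With day 9 knockout libraries only, they were -1.29 for Mpo and -1.45 for Prtn3 (limma, adjusted p = 0.113 and 0.0518).

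Lyz2, the myeloid lysozyme, was at or under 0.867 FPKM in knockout libraries, against 6.60, 5.51, 5.13 and 7.08 FPKM in DN2a libraries (-2.47 ± 0.18, limma, adjusted p = 3.66e-06). Lyz2 passed the filter through DN2a libraries alone, so it could not have come out higher. Csf1r and Itgax were the other members that fell (-1.003 and -0.89; limma, adjusted p = 0.000407 and 0.00924). The myeloid regulator Irf8 (-0.09), the integrin chain Itgam (0.05) and the Fc receptor Fcgr3 (0.93, limma, adjusted p = 0.0608) were not called. Fcgr3 had 27.9, 41.1 and 87.2 FPKM in knockout libraries, against 11.6, 27.8, 38.1 and 22.2 FPKM in DN2a libraries and at most 3.72 FPKM in Cre controls.

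Hbb-bt, an adult β-globin, was 273, 463 and 855 FPKM (lowest, median, highest) in knockout libraries, against 1331, 1320, 989 and 1268 FPKM in DN2a libraries (-1.48 ± 0.26, limma, adjusted p = 0.00355). No knockout library reached a DN2a library. The near-identical β-globin gene Hbb-bs can share reads with it, so the value of either is uncertain. Hbb-bs was not called, with -0.58 (limma, adjusted p = 0.481) in the fit that sets floor values aside. It was called lower in the year-term fit (-1.51, limma, adjusted p = 0.0171). Hba-a2, an α-globin, was low in both groups and higher in knockout libraries (1.48 ± 0.48, limma, adjusted p = 0.0495), with overlap. Its call was lost in 9 of the 11 omissions (adjusted p up to 0.139) and with libraries of 1 culture averaged (limma, adjusted p = 0.17). It too has a near-identical copy, Hba-a1, so its value is uncertain, and Hba-a1 was not called. The megakaryocyte integrin Itga2b had 50.7, 69.5 and 124 FPKM in knockout libraries, against 108, 99.5, 80.7 and 97.0 FPKM in DN2a libraries, and was not called (-0.35 ± 0.22, limma, adjusted p = 0.287). The erythroid, megakaryocyte and mast-cell list, a list of markers of other cells, had 2 of 8 tested members higher (Hba-a2 and Mcpt8; 1 with median scaling or quantile normalization, none of 7 in the year-term fit) and 1 lower (Hbb-bt; 3 in the year-term fit), and its summed level was 677 to 1407 FPKM in knockout libraries, against 1534 to 1706 FPKM in DN2a libraries.

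Of 6 genes of the sort and stage gates, 1 was higher (Cd27) and 1 was lower (Cd44). The sort markers Kit and Il2ra, on which cells were chosen, overlapped between knockout and DN2a libraries (-0.62 and 0.55; limma, adjusted p = 0.17 and 0.124). Cd44, a surface receptor that falls as T cells mature, had 1.16, 10.2 and 10.8 FPKM in knockout libraries, against 25.6, 33.5, 21.0 and 25.4 FPKM in DN2a libraries (-1.71 ± 0.40, limma, adjusted p = 0.0131). No knockout library reached a DN2a library, and knockout replicate 7 lay far below the others of its group.

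Of 15 tested genes of innate and NK-like cells, 6 were higher in knockout libraries and none was lower (median difference 0.97). The number higher was 4 to 8 when single libraries were left out, and 14 of 17 tested in the year-term fit. Against Cre controls 4 of 14 were higher and none was lower. The 22 listed genes included 3 that were not in the table and 4 that did not pass the filter, among them Ncr1 and Eomes, which define NK cells and were at or under 0.213 FPKM in every knockout library. Id2, an inhibitor of E proteins that innate lymphoid cells need, had 31.6, 57.8 and 95.2 FPKM (lowest, median, highest) in knockout libraries, against 2.93, 11.3, 24.5 and 13.4 FPKM in DN2a libraries (2.33 ± 0.43, limma, adjusted p = 0.00398). All knockout libraries were above all DN2a libraries. Cre controls had 24.0 to 43.7 FPKM, and the knockout minus Cre control difference was 0.73 (limma, adjusted p = 0.0821). Nfil3, a bZIP factor required for NK development, had 10.5, 15.9 and 20.2 FPKM in knockout libraries, against 6.90, 6.63, 9.00 and 7.15 FPKM in DN2a libraries (0.97 ± 0.17, limma, adjusted p = 0.00364). It was higher than in Cre controls by a similar amount (0.96, limma, adjusted p = 0.00367).

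Fcer1g, a signalling adaptor of Fc and NK receptors, had 261, 299 and 491 FPKM (lowest, median, highest) in knockout libraries, against 107, 173, 214 and 149 FPKM in DN2a libraries (1.02 ± 0.21, limma, adjusted p = 0.00675). Tyrobp, the adaptor DAP12, had 224, 263 and 511 FPKM in knockout libraries, against 140, 152, 205 and 191 FPKM in DN2a libraries (0.75 ± 0.21, limma, adjusted p = 0.0292). Neither overlapped, and both were much lower in Cre controls, at 17.7 to 69.8 FPKM for Fcer1g and 12.4 to 49.0 FPKM for Tyrobp. The difference from Cre controls was 2.89 for Fcer1g and 3.28 for Tyrobp (limma, adjusted p = 4.8e-06 and 2.38e-06). Tyrobp lost its call against DN2a without DN2a replicate 1, 2 or 4 (adjusted p = 0.0837, 0.0816 and 0.057), and its year-term difference was 0.39 (limma, adjusted p = 0.244). That of Fcer1g was 0.88 (limma, adjusted p = 0.0123).

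Il2rb, the β chain of the IL-2 and IL-15 receptors, had 0.345, 7.18 and 8.92 FPKM in knockout libraries, against 0.1, 0.1, 2.26 and 1.57 FPKM in DN2a libraries. Knockout replicate 5 lay among the DN2a libraries and the other 6 lay above them (1.75 ± 0.51, limma, adjusted p = 0.0322). The call was lost in 7 of the 11 single-library omissions, with the highest adjusted p of 0.0961 without DN2a replicate 2. Zbtb16, the factor PLZF of innate-like T cells, varied among knockout libraries: 8.53, 25.05 and 78.0 FPKM, against 8.78, 11.5, 20.5 and 17.0002 FPKM in DN2a libraries. It was not called against DN2a (0.97 ± 0.45, limma, adjusted p = 0.15) and was called in the year-term fit (1.92, limma, adjusted p = 0.00125).

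Of 7 tested cytotoxic genes, 3 were higher and 1 was lower (median difference 0.41). Serpinb9, a granzyme B inhibitor, differed by 0.63 (limma, adjusted p = 0.0427), with its call lost in 8 of the 11 omissions. Gzma, the protease granzyme A, was among the most abundant transcripts of every library, with 1951, 2694 and 3456 FPKM (lowest, median, highest) in knockout libraries, against 1031, 1489, 1286 and 1299 FPKM in DN2a libraries. The groups did not overlap (1.07 ± 0.20, limma, adjusted p = 0.00432), and Cre controls were near the DN2a level at 717 to 1638 FPKM. Ctsw, the protease cathepsin W of cytotoxic cells, had 31.4, 36.5 and 55.5 FPKM in knockout libraries, against 8.18, 7.50, 21.8 and 14.0 FPKM in DN2a libraries (1.57 ± 0.25, limma, adjusted p = 0.00173). It too exceeded the Cre controls (0.86, limma, adjusted p = 0.00819). Fasl, the death receptor ligand, was the lower one, at or under 0.72 FPKM in knockout libraries, against 2.22, 2.39, 1.87 and 3.21 FPKM in DN2a libraries (-1.19 ± 0.16, limma, adjusted p = 0.000539). Fasl passed the filter through DN2a libraries alone, so it could not have come out higher. Gzmb, granzyme B, overlapped between the groups (-0.23 ± 1.06, limma, adjusted p = 0.896).

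**Figure D5:**
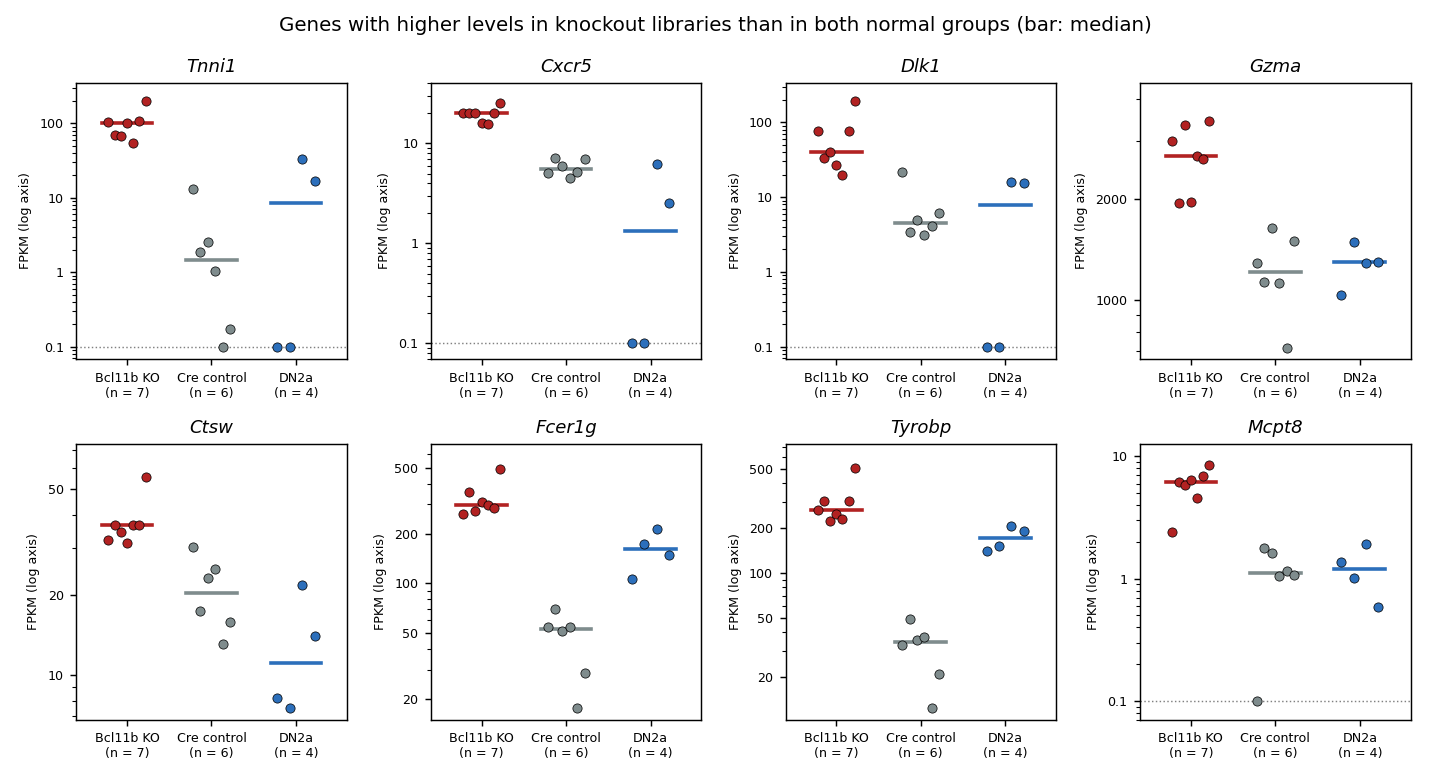
FPKM (log axis) of 8 genes called higher in knockout libraries than in DN2a libraries and than in Cre controls, in Bcl11b knockout (KO, n = 7), Cre control (n = 6) and DN2a (n = 4) libraries; points are libraries, bars are medians and the dotted line is the floor. Fcer1g lies between 261 and 491 FPKM in knockout libraries, at or under 69.8 FPKM in Cre controls and at or under 214 FPKM in DN2a libraries.

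Several genes stood above both normal groups. Tnni1, a troponin subunit of slow skeletal muscle, had 53.8, 102 and 200 FPKM (lowest, median, highest) in knockout libraries, against 0.1, 0.1, 33.4 and 17.007 FPKM in DN2a libraries and at most 12.95 FPKM in Cre controls. The difference from DN2a was 4.17 ± 0.82 (limma, adjusted p = 0.00593), or 1.92 without the floor values, and that from Cre controls was 5.13 (limma, adjusted p = 4.86e-06). Cxcr5, the chemokine receptor of B-cell follicles, had 15.5, 20.2 and 25.5 FPKM in knockout libraries, against 0.1, 0.1, 6.27 and 2.54 FPKM in DN2a libraries (3.12 ± 0.42, limma, adjusted p = 0.000644). It exceeded Cre controls by 1.61 (limma, adjusted p = 4.68e-06), and 4 of its knockout values lay within 2% of one another.

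Dlk1, a non-canonical Notch ligand, ranged widely in knockout libraries, at 19.6, 39.6 and 193 FPKM, against 0.1, 0.1, 15.8 and 15.4 FPKM in DN2a libraries. Its difference of 3.58 ± 0.82 (limma, adjusted p = 0.0117) was 1.63 and no longer called without the floor values (adjusted p = 0.101). The difference from Cre controls was 2.94 (limma, adjusted p = 0.0008). Mcpt8, a basophil protease, had 2.43, 6.22 and 8.46 FPKM in knockout libraries, against 1.38, 1.00, 1.94 and 0.582 FPKM in DN2a libraries (1.59 ± 0.25, limma, adjusted p = 0.00185). Its year-term difference was 0.31 (limma, adjusted p = 0.445). Lower than in both normal groups was Bst1, an ADP-ribosyl cyclase, with 0.269, 3.47 and 12.3 FPKM in knockout libraries, against 17.4, 18.7, 17.2 and 13.9 FPKM in DN2a libraries (-2.19 ± 0.53, limma, adjusted p = 0.0155). Against Cre controls its difference was -2.26 (limma, adjusted p = 0.0056), with overlap. Arhgef10l was also lower than in both normal groups, without overlap. It had 3.06 FPKM or less in knockout libraries, 5.41 FPKM or more in DN2a libraries and 3.70 FPKM or more in Cre controls. The difference of Arhgef10l from Cre controls was -1.94 (limma, adjusted p = 0.00272).

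Of 11 tested Notch targets, receptors and modulators, 1 was higher (Dlk1, listed as a pathway member) and 1 was lower (Myc). Over all tested genes 9.67% were higher and 7.25% were lower, so these counts are no result about the list. In the year-term fit 3 of 12 were higher and none was lower, against 9.27% and 7.99% over all genes tested there. Nrarp, a direct Notch target and feedback inhibitor, had 29.3, 65.4 and 98.3 FPKM (lowest, median, highest) in knockout libraries, against 67.2, 63.9, 37.6 and 61.4 FPKM in DN2a libraries (0.07 ± 0.28, limma, adjusted p = 0.885). Cre controls had 3.56 to 34.9 FPKM of Nrarp, a difference of 2.29 from knockout libraries (limma, adjusted p = 0.0008). Myc had 33.6, 65.5 and 90.1 FPKM in knockout libraries, against 113, 103, 96.1 and 92.3 FPKM in DN2a libraries (-0.75 ± 0.23, limma, adjusted p = 0.0435). The groups did not overlap, but its year-term difference was -0.23 (limma, adjusted p = 0.248), and 9 of the 11 single-library omissions ended the call, with adjusted p up to 0.103.

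Of 10 tested cytokine response genes, the feedback inhibitors Socs1 and Socs3 (2 of 10) were higher and none was lower, and 4 of 10 were higher in the year-term fit. Socs1, which blocks JAK kinases, had 36.3, 62.0 and 94.8 FPKM (lowest, median, highest) in knockout libraries, against 21.0, 0.1, 17.3 and 23.8 FPKM in DN2a libraries (2.63 ± 0.68, limma, adjusted p = 0.0199), or 1.56 without the floor value. Socs1 was not called with libraries of 1 culture averaged (limma, adjusted p = 0.064). Socs3 had 7.40, 9.72 and 13.3 FPKM in knockout libraries, against 0.1, 0.1, 4.12 and 3.08 FPKM in DN2a libraries (2.28 ± 0.38, limma, adjusted p = 0.00262). Neither overlapped between the groups. Of 14 tested cytokine receptors, 2 were higher (Il2rb and Il2rg, the common γ chain, 0.95, limma, adjusted p = 0.0166, or 0.88 and adjusted p = 0.0576 without DN2a replicate 4) and 1 was lower (Il4ra, -0.80, limma, adjusted p = 0.0417, which lost its call in 8 of the 11 omissions, with adjusted p up to 0.0963 without DN2a replicate 2). The number of receptors higher was 0 to 3 when single libraries were left out, and 5 of 14 in the year-term fit. Over all tested genes 9.67% were higher and 7.25% were lower. Il7r, the IL-7 receptor, was not called (1.98 ± 0.78, limma, adjusted p = 0.097).

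Of 14 trafficking genes, 6 were higher and none was lower (median difference 0.76): Cxcr5, Ccr9, Ccr7, Itgae, Klf2 and Ccr4. In the year-term fit 9 of the 14 were higher. Ccr7, a receptor for lymphoid tissue chemokines, had 15.9, 23.9 and 27.1 FPKM (lowest, median, highest) in knockout libraries, against 4.61, 7.20, 8.61 and 9.06 FPKM in DN2a libraries (1.52 ± 0.19, limma, adjusted p = 0.000404). Itgae, the αE integrin CD103, had 5.30, 7.72 and 23.9 FPKM in knockout libraries, against 0.1, 2.67, 5.61 and 2.53 FPKM in DN2a libraries (1.85 ± 0.47, limma, adjusted p = 0.0198), and 1.35 without DN2a replicate 1 (adjusted p = 0.057). Ccr7 did not overlap and Itgae did. Klf2, a factor that drives S1pr1, differed by 1.29 ± 0.29 (limma, adjusted p = 0.0111).

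Among genes outside these lists, Cd163l1, a scavenger receptor of γδ T cells, had 144, 185 and 439 FPKM (lowest, median, highest) in knockout libraries, against 0.1, 0.1, 14.9 and 13.9 FPKM in DN2a libraries (5.79 ± 0.71, limma, adjusted p = 0.000335, or 3.88 without the floor values). Col15a1, a basement membrane collagen, had 26.5, 59.0 and 111 FPKM in knockout libraries, against 0.1, 0.1, 1.55 and 0.1 FPKM in DN2a libraries (5.42 ± 0.35, limma, adjusted p = 1.37e-06). Cre controls had 124 to 176 FPKM of Cd163l1 and 21.6 to 44.5 FPKM of Col15a1, overlapping the knockout range for both genes.

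Adgre5, the adhesion receptor CD97, had 9.21, 12.8 and 22.8 FPKM in knockout libraries and was listed at 0.1 FPKM in all 4 DN2a libraries, so it could not have come out lower. Tubb2b, a β-tubulin, had 11.6, 18.3 and 28.0 FPKM in knockout libraries, against 0.1, 0.1, 4.09 and 0.1 FPKM in DN2a libraries (3.64 ± 0.39, limma, adjusted p = 0.000142). Its difference from Cre controls was -1.95 (limma, adjusted p = 0.000115). Cpne2, a calcium-dependent membrane binding protein, had 21.3, 40.1 and 64.6 FPKM in knockout libraries, against 11.8, 0.1, 3.09 and 0.488 FPKM in DN2a libraries (3.65 ± 0.55, limma, adjusted p = 0.00137).

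Among the largest negative differences were Cox6b2 (-2.68), Epb41l4b (-2.41), Arhgef10l (-2.09) and Cox4i2 (-2.08). Epb41l4b was at or under 0.818 FPKM in knockout libraries and passed the filter through DN2a libraries alone. Cox6b2 and Cox4i2 encode tissue-specific subunits of cytochrome c oxidase. Cox4i2 had 2.00, 6.62 and 32.4 FPKM in knockout libraries, against 43.7, 39.5, 22.7 and 40.6 FPKM in DN2a libraries (limma, adjusted p = 0.0201), and lost its call without DN2a replicate 1, 2 or 4 (adjusted p = 0.0533, 0.0508 and 0.0583). With day 9 knockout libraries only, its difference was -0.96 (limma, adjusted p = 0.155). Lars2, a mitochondrial leucyl-tRNA synthetase, had 242, 436 and 1129 FPKM in knockout libraries, against 2981, 3163, 1717 and 1785 FPKM in DN2a libraries (-2.22 ± 0.39, limma, adjusted p = 0.00334). Its year-term difference was -0.25 (limma, adjusted p = 0.429). Slc5a9, a sugar transporter, was listed at 0.1 in 6 of the 7 knockout libraries (-2.62 ± 0.63, limma, adjusted p = 0.0151), and its sign turned when floor values were set aside (0.37, adjusted p = 0.756). It was not called with libraries of 1 culture averaged (limma, adjusted p = 0.0746).

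Of 9 tested genes of the fetal programme, 2 were higher and 1 was lower, and in the year-term fit 4 of 8 were higher and 1 was lower. Igf2, an imprinted growth factor, had 149, 227 and 442 FPKM (lowest, median, highest) in knockout libraries, against 67.6, 0.1, 65.1 and 61.5 FPKM in DN2a libraries (3.31 ± 0.90, limma, adjusted p = 0.0258, or 1.83 without the floor value). Igf2 was not called with libraries of 1 culture averaged (limma, adjusted p = 0.0779). Igf2bp1, an RNA-binding protein of fetal cells, had 2.09, 5.54 and 9.31 FPKM in knockout libraries, against 13.51, 15.9, 8.32 and 14.1 FPKM in DN2a libraries (-1.14 ± 0.31, limma, adjusted p = 0.0262), and lost its call without DN2a replicate 1, 2 or 4 (adjusted p = 0.062, 0.0757 and 0.0757). Lin28a was higher but low, at 1.49 FPKM or less in knockout libraries and 0.485 FPKM or less in DN2a libraries.

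Of 20 cell-cycle and replication genes, limma called none (median difference -0.37), with 10 of 20 at an unadjusted p under 0.05. Limma called 1 of them lower with median scaling, 2 with quantile normalization and 6 in the year-term fit. Pcna, the replication clamp, had 191, 357 and 443 FPKM in knockout libraries, against 413, 438, 341 and 477 FPKM in DN2a libraries (-0.35 ± 0.22, limma, adjusted p = 0.277). Of 18 glycolysis genes, 4 were lower (Slc2a1, Ldha, Aldoa and Pfkl) and none was higher (median difference -0.42), and 2 to 5 were lower when single libraries were left out. Pfkl lost its call without any single DN2a replicate and in most knockout omissions (limma, adjusted p up to 0.124). Slc2a1 lost its call without DN2a replicate 1 and Aldoa without DN2a replicate 3 (limma, adjusted p = 0.07 and 0.0582). Ldha, lactate dehydrogenase A, had 388, 531 and 742 FPKM in knockout libraries, against 1023, 878, 802 and 859 FPKM in DN2a libraries (-0.74 ± 0.18, limma, adjusted p = 0.0164). Its groups did not overlap, but its year-term difference was -0.27 (limma, adjusted p = 0.275), and limma called no glycolysis gene in that fit. Of 17 cholesterol genes, 1 was lower and none was higher, and 0 to 3 were lower when single libraries were left out. Of 16 tested interferon genes, 3 were higher (Psmb8, Irf1 and Gm43302, named Gbp6 in the table) and 1 was lower (Oas1a). Gm43302 was listed at 0.1 FPKM in all 4 DN2a libraries, so it could not have come out lower. The number higher was 1 to 3 when single libraries were left out, with the calls of Irf1 and Gm43302 each lost in 5 of the 11 omissions, and 2 of 15 in the year-term fit. Of 10 tested immediate early and heat-shock genes, 1 was lower (Hspa1b, at or under 2.14 FPKM in knockout libraries). Of 5 sex-linked genes, 1 was higher (Eif2s3y, 0.62, limma, adjusted p = 0.0213), with the sign turned in the year-term fit (-0.21). Over all tested genes 9.67% were higher and 7.25% were lower. A single call in a list of this paragraph is therefore no result about that list.

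Markers of other cells that the cultures could hold gave few calls beyond the myeloid and erythroid lists above. B-lineage markers had 1 of 5 tested higher (Blk) and 1 lower (Cd79b, -1.03, limma, adjusted p = 0.00167). Over all tested genes 9.67% were higher and 7.25% were lower. Stromal markers had 1 of 9 tested higher (Thbs1, listed at 0.1 in all 4 DN2a libraries and at 4.01 FPKM or less in knockout libraries). Blk and Thbs1 passed the filter through knockout libraries alone, so neither could have come out lower. The summed level of the stromal markers, most of it Vim, was 209 to 537 FPKM in knockout libraries, against 227 to 335 FPKM in DN2a libraries. The part of these cells in the results was not tested.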

How the data were processed

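The authors deposited 1 table of FPKM values for 17754 genes, merged over libraries and, by its name, adjusted with ComBat, and built on mm9, per the submitters' processing notes. The sources used here name neither an aligner nor the batches and model of the adjustment. RNA was selected on oligo-dT beads, fragmented and randomly primed, per the labels' protocols. Columns were matched to samples by the number in each description; 16 of the 63 value columns match no sample given here and were not used. Library depth is unknown. Gene names follow GENCODE M21 by Ensembl ID (16481 matched), and no coordinates are given because its build differs. Spi1 is Sfpi1, Adgre5 is Cd97 and Hbb-bt is Hbb-b2 in the table.

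From these values, log2(FPKM + 1) was fitted with limma 3.58.1 in R 4.3.3 (mean-variance trend, empirical Bayes, Benjamini-Hochberg adjustment), on genes at 1 FPKM or more in as many libraries as the smaller group. Each comparison used only its own 2 groups, without a block. The script was tested on simulated data. Knockout and Cre control libraries share title dates in 5 pairs, the source of the pairing in the labels; the correlations of their deviations were 0.471, 0.0386, -0.141, 0.613 and 0.138.

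The text names 15 fixed genes, the 10 most positive and 10 most negative called genes with a group mean of 5 FPKM or more (excluding receptor segments, small RNAs, pseudogenes and predicted genes), and up to 3 called members of each of 24 lists, or the 2 most abundant where none was called; other list members named were chosen after their values were seen. Some genes that the rule names are not reported here. The groups compared and the lists were chosen with earlier results of these data known. Alternatives covered the pseudocount, filters, scaling, variances, cultures, culture day, year and each library left out. A setting that drops floor values, and the counts by list under every setting, were added after seeing the data.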

Additional observations from a re-analysis of the deposited data

Results flagged for a closer look

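In 18 of 150 checks, each of 1 named gene in 1 group of 4 or 7 libraries, the highest or lowest library stood apart from the rest of its group; chance gives about 1 in 20. DN2a replicate 3 accounted for 6 of them and knockout replicate 1 for 4. Some of these flags were forced by the floor. Cd247, Tubb2b, Col15a1 and Hba-a2 had 3 of 4 DN2a libraries at the floor. Slc5a9 had 6 of 7 knockout libraries at the floor. With all other libraries tied, the remaining one stood apart whatever its level. The 18 can therefore not be set against 1 in 20, and the counts per replicate do not show that a library is outlying.

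Among knockout libraries, Tyrobp was highest in replicate 7 (511 FPKM), as was Ctsw (55.5 FPKM), and Cd44 was lowest there (1.16 FPKM). Knockout replicate 1 was highest for Slc5a9 (11.3 FPKM), Hspa1b (2.14 FPKM) and Hivep3 (1.79 FPKM), and lowest for Hba-a2 (0.1 FPKM). Il2rb was lowest in knockout replicate 5 (0.345 FPKM).

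Among DN2a libraries, replicate 3 was lowest for Nrarp (37.6 FPKM), Cox4i2 (22.7 FPKM) and Hbb-bt (989 FPKM). It was highest for Cd247 (8.49 FPKM), Tubb2b (4.09 FPKM) and Col15a1 (1.55 FPKM). DN2a replicate 2 was lowest for Slc5a9 (2.53 FPKM), Socs1 (0.1 FPKM) and Igf2 (0.1 FPKM), and replicate 1 was highest for Hba-a2 (3.26 FPKM).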

How the results depend on the processing

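Of 2196 genes called between knockout and DN2a libraries (1255 higher, 941 lower), the count was 2061 with a pseudocount of 0.1, 2578 with no filter, 2330 with quantile normalization and 2245 with culture as a random effect. Quantile normalization turned the split to 1077 higher and 1253 lower. Genes at 5 FPKM or more gave 1389 calls (764 higher, 625 lower). Knockout libraries of day 9 gave 428 (221 and 207), and 70 (43 and 27) when the day 4.5 DN2a library was also left out. Knockout libraries on OP9-DL4 against DN2a of the middle year gave 757 (456 and 301). These last 3 settings use fewer samples. Leaving out 1 library gave 1160 to 2404 calls, 704 to 1402 higher and 456 to 1002 lower, with 1160 without DN2a replicate 4, 1311 without replicate 2 and 1492 without replicate 1. Between knockout and Cre control libraries (778 called), genes at 5 FPKM or more gave 499 (298 and 201) and omissions 612 to 840, with 364 to 465 higher and 248 to 392 lower. Between Cre control and DN2a libraries (2969 called), genes at 5 FPKM or more gave 1848, with 941 higher, and omissions 1772 to 3050, with 1026 to 1634 higher and 746 to 1416 lower; 1772 was without DN2a replicate 4.

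Of 66 named genes called between knockout and DN2a libraries, 48 kept their call in all single-library omissions, 53 under all scaling, variance and culture settings, and, of 62 tested, 44 in the year-term fit, 30 in the middle-year fit, 19 with day 9 knockout libraries and 6 when the day 4.5 DN2a library was also left out. The sign turned for Ptcra in the year-term fit (1.68) and the middle-year fit (2.65), for Hivep3 in both (0.066 and 0.20) and for Eif2s3y in both (-0.21 and -0.77). It turned in the middle-year fit for Tyrobp (-0.24) and Myc (0.0048), and without floor values for Slc5a9 (0.37). The cause was not tested.

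No paired analysis was possible because knockout and DN2a libraries share no culture, date or replicate number in their labels. Knockout and Cre control libraries share title dates, and the fit with the replicate block on these pairs called 705 genes (366 higher, 339 lower), against 778 without the block. Not every pair's correlation was over 0.1. Depth is unknown for FPKM values, and the replicates measure only the spread between these libraries.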

Other observations

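T-cell receptor gene segments were looked at after their values were seen. Of 60 tested segments, 18 were called higher in knockout than in DN2a libraries (30.0%) and 1 was lower (1.67%), against 964 higher and 816 lower of 10911 protein-coding genes (limma, adjusted p under 0.05). Of 892 pseudogenes, 64 were higher (7.17%) and 82 lower (9.19%). Genes without an annotation match had 89 of 575 higher (15.5%) and 31 lower (5.39%). The remaining gene types had 120 of 541 higher (22.2%) and 11 lower (2.03%), so a skew to higher was not particular to segments. Of the 18 segments called higher, 12 were listed at 0.1 FPKM in at least 1 DN2a library. In the fit that sets floor values aside, 19 segments were called higher. That fit keeps floor values where no library of the group had 10 FPKM or more. The count of 19 therefore does not show whether calls that rest on floor values would hold. Segments are short and similar to one another, so their FPKM values are uncertain and may share reads. In the γ locus, Trgv2 averaged 199 ± 110 FPKM in knockout, 319 ± 156 in Cre control and 38.4 ± 76.6 in DN2a libraries (SD, n = 7, 6 and 4). Of the DN2a libraries, 3 were listed at 0.1 FPKM and 1 had 153 FPKM. Its knockout minus DN2a difference was 5.17 ± 1.32 (limma, adjusted p = 0.0198), and it was -0.18 and not called without the floor values (limma, adjusted p = 0.948). Tcrg-C4, a γ constant gene, averaged 161 ± 45.6, 162 ± 27.3 and 34.9 ± 38.2 FPKM in the same order of groups (3.47 ± 0.81, limma, adjusted p = 0.0129). In the β locus, Trbj2-7 averaged 95.7 ± 19.1 FPKM in knockout, 130 ± 79.4 in Cre control and 9.30 ± 18.4 in DN2a libraries (5.16 ± 0.77, limma, adjusted p = 0.0013). With 3 DN2a libraries at 0.1 and 1 at 36.9 FPKM, its difference was 1.33 without the floor values (limma, adjusted p = 0.0138). In the δ locus, Trdv5 averaged 27.6 ± 4.60 FPKM in knockout, 22.2 ± 2.86 in Cre control and 9.69 ± 2.93 in DN2a libraries (1.44 ± 0.18, limma, adjusted p = 0.000385). None of these 4 was called between knockout and Cre control libraries.

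The constant genes Tcrg-C2, Trbc1 and Trac were not called between knockout and DN2a libraries. Tcrg-C2 averaged 791 ± 181 FPKM in knockout and 668 ± 237 FPKM in DN2a libraries (0.28, limma, adjusted p = 0.472), and Trbc1 averaged 661 ± 161 and 504 ± 110 FPKM in the same groups (0.38, limma, adjusted p = 0.200). Trac, the α constant gene, was low, at 8.05 ± 1.55 FPKM in knockout and 3.88 ± 2.91 FPKM in DN2a libraries (1.17, limma, adjusted p = 0.0522). The lower segment was Traj49, with 0.329 FPKM in knockout and 1.55 FPKM in DN2a libraries on average (-1.01, limma, adjusted p = 0.00959).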
